A study of Mus musculus with 6 samples.

Results

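The 10 genes described here encode the enzymes and regulators that set the level of the polyamines spermidine and spermine. They were chosen by symbol, and all 10 (Odc1, Amd1, Srm, Sms, Sat1, Smox, Oaz1, Oaz2, Azin1 and Azin2) were found among the 18697 genes of the count table. Both groups were mouse prostates in experimental autoimmune prostatitis, a disease model in which immunity against prostate antigens inflames the gland. In the treated group, 3 samples came from mice injected into the abdomen each day for 14 days with VUF11207 at 5 mg per kg, a small-molecule agonist of the chemokine receptor CXCR7. The 3 vehicle samples came from mice that received DMSO in equal amount over the same time. The labels used here give no strain, age or prostate lobe and do not tie a library to an animal, so a p-value here speaks only of the spread among these libraries, which may be technical. Vehicle had libraries numbered 2 and 3 and a further one, here the unnumbered vehicle library, whose heading in the count table could not be tied to a numbered sample. Values are listed below with vehicle in the order unnumbered, replicate 2, replicate 3 and VUF11207 in the order replicate 1, 2, 3.

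Polyamines are small, positively charged molecules that bind nucleic acids and are needed for cell growth, and the prostate makes and secretes them in large amounts. Ornithine decarboxylase (Odc1) makes putrescine from ornithine, and S-adenosylmethionine decarboxylase (Amd1) supplies the aminopropyl groups that spermidine synthase (Srm) and spermine synthase (Sms) add in turn. Spermidine/spermine acetyltransferase (Sat1) and spermine oxidase (Smox) turn the products back. Antizymes (Oaz1, Oaz2) bind ornithine decarboxylase and send it to the proteasome, and antizyme inhibitors (Azin1, Azin2) are inactive relatives of the enzyme that capture antizyme and spare it.

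Much of this circuit is set after transcription, which read counts do not see. Antizyme is made only when the ribosome slips by a base at a stop codon early in the message, and polyamines favour that slip. The stretches below hold that site in both antizyme messages, with the slip codon and the stop codon in capitals (GENCODE M21, mm10, plus strand). Oaz1 lies at chr10:80828280-80828309 and Oaz2 at chr9:65686257-65686286, and 28 of their 30 bases were identical. The third line is the same stretch in the annotated Oaz1 coding transcript, which leaves out the base that the ribosome skips.
Oaz1 message: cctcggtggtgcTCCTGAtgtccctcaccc
Oaz2 message: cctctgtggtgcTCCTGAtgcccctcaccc
Oaz1 annotated coding transcript: cctcggtggtgcTCCGAtgtccctcaccc

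Amd1 is also restrained at translation, by a short reading frame ahead of its coding region at which ribosomes stall when polyamines are high. It lies at chr10:40302155-40302175 on the minus strand of mm10, starts at base 12 of the transcript and encodes 6 residues, with its start and stop codons in capitals.
Amd1 upstream reading frame: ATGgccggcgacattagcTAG
The counts below are therefore levels of message, and the activity of these enzymes was not measured.

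None of the 10 genes passed the test between VUF11207 and vehicle, beside 0% of all genes tested. In the scaling of that test the groups overlapped for each of the 10, while 5.57% of all genes had groups apart. Scaled by library totals alone, Odc1 was higher in each VUF11207 library than in each vehicle library, as were 1.88% of genes. Larger differences lay between libraries of the same group. Sms, Sat1 and Azin2 had their highest values in the unnumbered vehicle library and VUF11207 replicate 2, 1 from each group, whether counts were scaled by TMM, by RLE (both set a library by its typical gene) or by library totals alone. Amd1, Srm, Oaz1, Oaz2 and Azin1 had their lowest values in the same libraries by TMM and by RLE, but by library totals alone 0 of the 10 did. The ratio of Sms to Srm, which needs no scaling between libraries, was 2.59 and 1.197 in that pair and 0.183 to 0.341 in the other 4.

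Total counts ran from 20308018 to 33368058 per library, and seminal vesicle markers took 63.3% of the counts in vehicle replicate 2, 27.8% in VUF11207 replicate 1 and at most 16.3% elsewhere. All 7 prostate markers described (Pbsn, Sbp, Tgm4, Msmb, Hoxb13, Spink1 and Apof) had counts in each library. They took 2.94% of counts in vehicle replicate 2 and 5.33% to 21.7% in the others. The part of each library that came from prostate tissue was not tested. Levels below are CPM, read counts relative to library size, after TMM scaling, which corrects for a few very abundant genes. The scaling factor was 0.425 in vehicle replicate 2 and 1.01 to 1.33 in the others, so CPM there depends most on the scaling. By library totals alone it was the lowest library for all members but Amd1 and Smox. Together the 10 genes made up 0.0428% of counts in vehicle replicate 2 and 0.0961% to 0.136% in the other libraries.

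**Figure D1:**
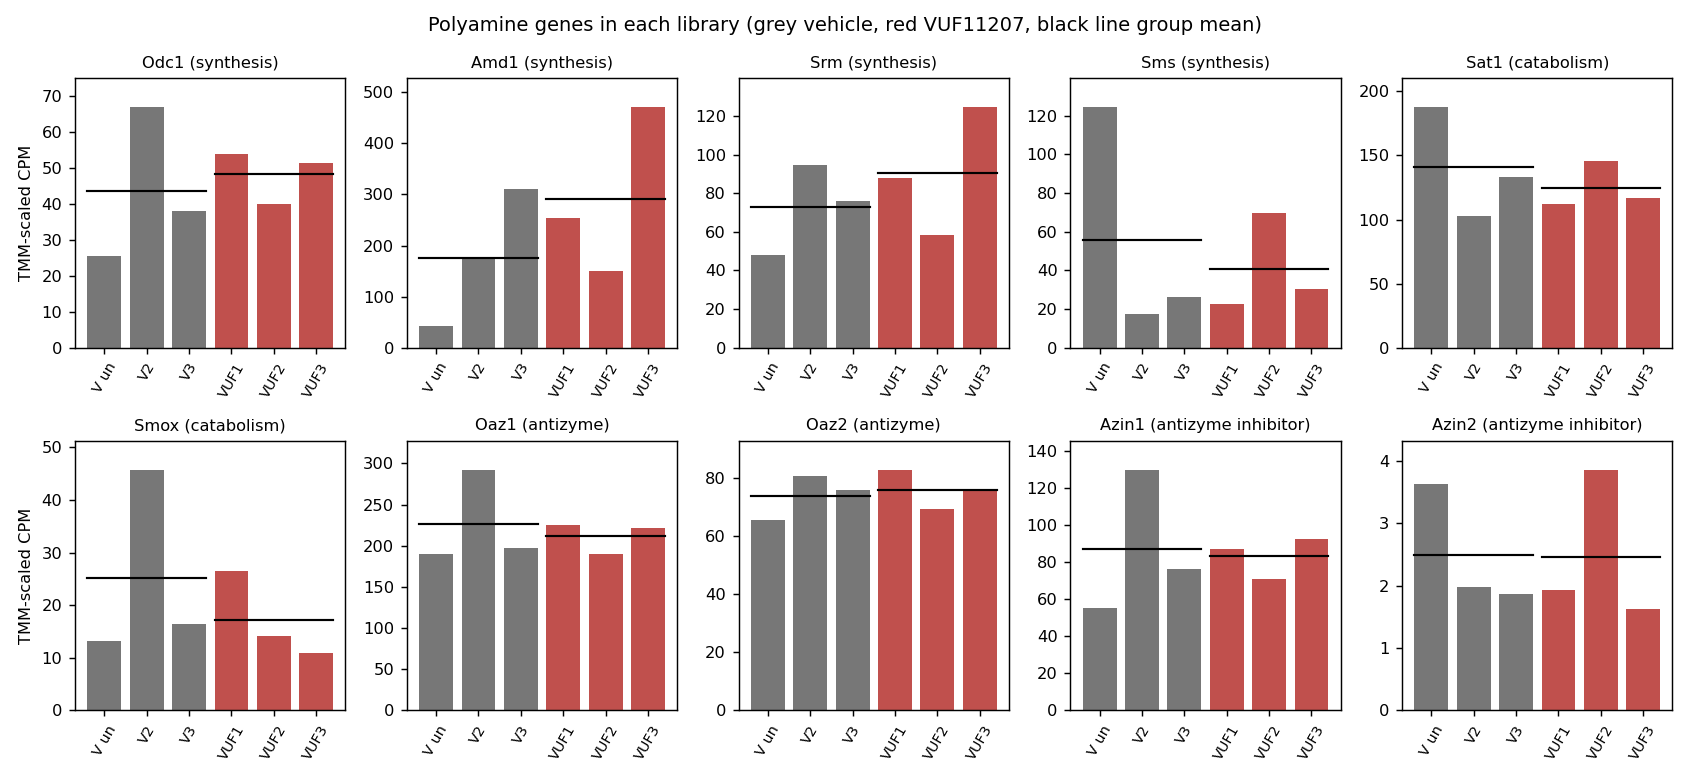
TMM-scaled CPM (vertical axes, each from 0) of the 10 polyamine genes in each library, with vehicle in grey (V un is the unnumbered library), VUF11207 in red and group means as black lines. Sms stands highest in the unnumbered vehicle library (124 CPM) and VUF11207 replicate 2 (69.9 CPM), where Amd1 is lowest (43.4 and 149 CPM) by this scaling.

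Among the synthesis enzymes, Odc1, the entry step, was at 25.5, 66.9 and 38.1 CPM with vehicle and at 53.9, 40.1 and 51.3 CPM with VUF11207. The vehicle libraries held both the highest and the lowest value, and the VUF11207 libraries lay between them. Its log2 fold change was 0.15 ± 0.36 (SE, n = 3 each), with a 95% interval from -0.70 to 1.01. Scaled by library totals alone, Odc1 was at 33.9, 28.5 and 46.9 CPM with vehicle and 54.3, 49.9 and 58.4 CPM with VUF11207. The groups then did not overlap, as for 1.88% of the genes tested in this direction and 0.131% in the other, and the log2 fold change was 0.57 ± 0.61 (SE). That scaling moved the median of all genes from -0.04 to 0.14 on the log2 scale. Without vehicle replicate 2 the Odc1 fold change was 0.61, and without the unnumbered vehicle library it turned to -0.12.

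By TMM Amd1 varied most of the 10 genes, 10.8-fold between the lowest and the highest library. It was at 43.4, 175 and 309.6 CPM with vehicle and at 253, 149 and 471 CPM with VUF11207. VUF11207 replicate 3 stood above all others and the unnumbered vehicle library below them, also by library totals alone, and the rest overlapped across groups. The log2 fold change was 0.73 ± 0.72 (SE), with an interval from -0.996 to 2.45, falling to 0.20 when VUF11207 replicate 3 was left out and reaching 1.42 when vehicle replicate 3 was. Amd2, a near copy of Amd1, had 7 to 63 counts per library against 1172 to 13915 for Amd1. Of the 50-base stretches of the Amd1 transcript, 87.6% also occurred in Amd2 or annotated pseudogenes, so the value of Amd1 depends on how shared reads were treated, which is not given in the sources used here. The same share was 52.2% for Oaz1, 42.2% for Odc1, 28.7% for Sms and 0 to 11.98% for the other 6.

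Srm, which makes spermidine, was at 48.0, 94.9 and 76.2 CPM with vehicle and 88.1, 58.4 and 125 CPM with VUF11207. Its lowest values were again in the unnumbered vehicle library and VUF11207 replicate 2, though by library totals alone the lowest was vehicle replicate 2 at 40.4 CPM, and its highest was in VUF11207 replicate 3 either way. The log2 fold change was 0.31 ± 0.36 (SE), with an interval from -0.55 to 1.17, and was 0.0050 without VUF11207 replicate 3.

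Sms, which turns spermidine into spermine, ran the other way. It was at 124, 17.3 and 26.0 CPM with vehicle and 22.4, 69.9 and 30.5 CPM with VUF11207, a 7.17-fold range. The 2 high libraries came from different groups, and the other 4 lay within 17.3 to 30.5 CPM. By library totals alone the same libraries were high, at 165 and 87.1 CPM against 7.37 to 34.7 CPM. The log2 fold change was -0.45 ± 0.81 (SE), with an interval from -2.39 to 1.48. It turned to 0.92 without the unnumbered vehicle library and was -1.08 without VUF11207 replicate 2.

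The start regions of Amd1, Sat1 and Sms are shown because these genes moved in opposite directions across libraries. Each line gives the 250 bases before the RefSeq start (GRCm38.p6, the assembly of mm10, minus strand), with matches to the searched motifs in capitals. Of the 10 members, 7 were matched in the RefSeq table, and Srm, Azin1 and Azin2 were not. The motifs were the GC box GGGCGG, the E-box CACGTG, the TATA motifs TATAAA and TATATA, and the androgen response element (AGAACA, any 3 bases, TGTTCT), searched on both strands, and none of the matches below overlaps another motif. The windows lie at chr10:40302189-40302438 for Amd1, chrX:155216450-155216699 for Sat1 and chrX:157492288-157492537 for the outer of 2 RefSeq starts of Sms.
Amd1: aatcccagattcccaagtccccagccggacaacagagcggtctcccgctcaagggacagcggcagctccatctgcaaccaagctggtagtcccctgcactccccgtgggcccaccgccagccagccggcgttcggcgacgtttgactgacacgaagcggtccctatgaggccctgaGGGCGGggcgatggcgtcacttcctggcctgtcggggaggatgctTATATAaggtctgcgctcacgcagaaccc
Sat1: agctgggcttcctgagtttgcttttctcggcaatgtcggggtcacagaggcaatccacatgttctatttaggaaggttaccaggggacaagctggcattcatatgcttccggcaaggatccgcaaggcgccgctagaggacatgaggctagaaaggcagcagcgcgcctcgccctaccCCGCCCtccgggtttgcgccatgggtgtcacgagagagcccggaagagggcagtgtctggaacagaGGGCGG
Sms: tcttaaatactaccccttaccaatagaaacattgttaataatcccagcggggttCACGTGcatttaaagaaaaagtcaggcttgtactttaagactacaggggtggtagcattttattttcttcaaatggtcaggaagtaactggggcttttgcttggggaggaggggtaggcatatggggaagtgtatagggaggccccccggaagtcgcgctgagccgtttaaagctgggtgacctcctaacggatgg

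The Amd1 window held 1 GC box and the TATATA motif, which begins 29 bases before the start and is found in 5.25% of all 32851 windows. The Sat1 window held 2 GC boxes (a motif in 32.7% of windows) and the Sms window an E-box 196 bases before the start (in 6.02%). The window of the inner Sms start, not printed, had no E-box and 4 GC boxes. TATAAA (12.4% of windows) and the androgen response element (0.00913%) had no match in these 3 windows. These are matches of letters and say nothing on which factors bind.

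Among the catabolic enzymes, Sat1, which acetylates spermidine and spermine, was at 188, 103 and 133 CPM with vehicle and 112, 146 and 117 CPM with VUF11207. The order of libraries was that of Sms at its top, with the unnumbered vehicle library highest and VUF11207 replicate 2 next. The range was narrower than that of Sms, 1.82-fold by TMM. By library totals alone it was 5.71-fold, from 43.8 CPM in vehicle replicate 2 to 249.7 CPM in the unnumbered vehicle library. The log2 fold change was -0.18 ± 0.28 (SE), with an interval from -0.84 to 0.48, and it turned to 0.083 without the unnumbered vehicle library.

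Smox, which oxidises spermine to spermidine, had another pattern. It was at 13.2, 45.7 and 16.4 CPM with vehicle and 26.5, 14.1 and 10.8 CPM with VUF11207. Its highest values were in vehicle replicate 2 and VUF11207 replicate 1, the libraries with the largest seminal vesicle share, but by library totals alone vehicle replicate 2 (19.4 CPM) was below vehicle replicate 3 (20.1 CPM). All 8 seminal vesicle markers were higher in these libraries than in the other 4, but that share is itself the counts of these markers. Their summed levels were 5222 to 1488500 CPM in the vehicle group and 24980 to 275233 CPM in the VUF11207 group, and no marker was at 0. The part of seminal vesicle tissue in the Smox values was not tested. The log2 fold change of Smox was -0.55 ± 0.56 (SE), with an interval from -1.88 to 0.78. It turned to 0.22 without vehicle replicate 2 and was -0.015 by library totals alone.

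By TMM the antizymes varied least of the members. Oaz2 was at 65.4, 80.5 and 75.7 CPM with vehicle and 82.6, 69.2 and 75.8 CPM with VUF11207, a 1.26-fold range. Its SD over the 6 libraries was 0.13 on the log2 scale, and only 2.97% of the genes tested had a smaller one, against 89.4% for Amd1 and 87.3% for Sms. By library totals alone Oaz2 was at 34.2 CPM in vehicle replicate 2 and 83.4 to 93.0 CPM in the other 5, 22.4% of genes had a smaller SD, and Azin1, Smox, Oaz1 and Odc1 varied less than Oaz2. Oaz1, the most abundant antizyme, was at 189.9, 292 and 197 CPM against 225, 189.95 and 222 CPM, highest in vehicle replicate 2, which was the lowest by library totals alone (124 CPM). The log2 fold changes were 0.04 ± 0.18 for Oaz2 and -0.09 ± 0.26 for Oaz1 (SE), with intervals from -0.39 to 0.47 and from -0.71 to 0.52. Oaz1 turned to 0.15 without vehicle replicate 2 and to 0.21 by library totals alone.

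Azin1, the widely expressed antizyme inhibitor, was at 55.1, 129.6 and 76.2 CPM with vehicle and 86.8, 70.6 and 92.2 CPM with VUF11207. Like Odc1 it was highest in vehicle replicate 2 and lowest in the unnumbered vehicle library by TMM, and lowest in vehicle replicate 2 by library totals alone. Azin2 was the rarest member, with 28 to 115 counts per library. It was at 3.63, 1.97 and 1.87 CPM against 1.93, 3.86 and 1.62 CPM, high in the same libraries as Sms. The log2 fold changes were -0.06 ± 0.33 for Azin1 and -0.01 ± 0.54 for Azin2 (SE), with intervals from -0.86 to 0.73 and from -1.29 to 1.26. Azin1 turned to 0.35 without vehicle replicate 2 and to 0.34 by library totals alone, and Azin2 ran from -0.49 to 0.36 with 1 library left out.

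**Figure D2:**
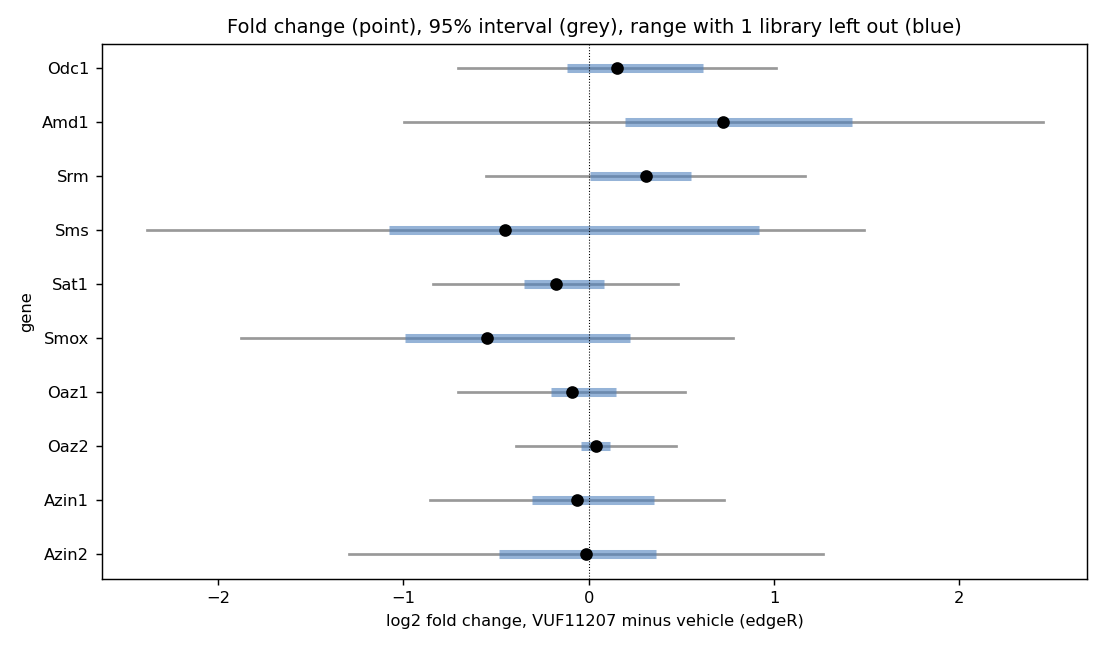
Log2 fold change of each gene, VUF11207 minus vehicle (points, edgeR), its 95% interval (grey) and its range when 1 of the 6 libraries is left out (blue). All intervals include 0, the narrowest being that of Oaz2 (-0.39 to 0.47) and the widest that of Sms (-2.39 to 1.48).

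In edgeR's quasi-likelihood test 0 of 10 members passed a Benjamini-Hochberg adjusted p of 0.05, beside 0% of the 13753 genes tested, and the adjusted p was 0.9999 for each. None had an unadjusted p under 0.05 (1.43% of all genes), and DESeq2 and limma voom also called 0 of 10, beside 0.0231% (4 of 17291 genes) in DESeq2 and 0% in limma voom. With library totals alone as the scaling, edgeR called 0 of 10, beside 0.0218% (3 of 13753 genes). By library totals alone the groups were apart for 1 of 10 members (Odc1, higher with VUF11207), beside 1.88% of genes higher and 0.131% lower. By TMM they were apart for 0 of 10 members, beside 5.57% of all genes (3.05% higher and 2.52% lower with VUF11207). Of the members 4 had a log2 fold change above 0 (44.7% of all genes), and their median was -0.04, the same as that of all genes. These intervals leave room for changes of more than 2-fold in Amd1, Sms, Smox, Azin2, Srm and Odc1, so the test does not set the size of their change below that.

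Levels between genes were compared as CPM per kilobase of annotated exon, averaged over the 6 libraries. Oaz1 came highest at 85.7 ± 15.2 (SD, n = 6), followed by Amd1 at 65.9 ± 41.7, Srm at 51.1 ± 17.2, Sat1 at 48.0 ± 11.1, Oaz2 at 25.0 ± 2.19, Azin1 at 13.6 ± 4.05, Odc1 at 13.5 ± 4.25, Sms at 8.05 ± 6.94, Smox at 5.42 ± 3.40 and Azin2 at 0.616 ± 0.245. Sat1 was above Oaz2, Oaz2 above Azin1 and Smox above Azin2 in 6 of 6 libraries. The other neighbours changed places in at least 1 library, and no test between genes was run. Oaz1 was above Amd1, Amd1 above Srm and Sms above Smox in 4 of 6 libraries. Odc1 was above Sms in 5, and Srm above Sat1 and Azin1 above Odc1 in 3. By this measure Oaz1 (74.2 to 114 CPM per kilobase) and Oaz2 (21.9 to 27.6) were above Odc1 (7.49 to 19.7), the enzyme they bind, in each library. The annotated exons together are longer than a single transcript (3405 against 2208 bases for Odc1, 2990 against 1843 for Oaz2). Reads shared with pseudogenes also bear on the values of Odc1 and Oaz1. Apart from Sms and Srm, compared below, the order of genes by transcript length was not tested. The order by unshared stretches was not tested for any gene.

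Ratios of genes within a library do not depend on the scaling between libraries. The count of Sms over that of Srm was 2.59, 0.183 and 0.341 with vehicle and 0.254, 1.197 and 0.245 with VUF11207. The unnumbered vehicle library and VUF11207 replicate 2 were high and the other 4 low. The ratio is not corrected for exon length (6010 bases for Sms, 1599 for Srm), so it compares libraries and not genes. Per kilobase of annotated exon Sms was below Srm in 6 of 6 libraries. Single transcripts are shorter (3717 bases for Sms, 1338 for Srm), and with those lengths Sms was also below Srm in each library. The order by unshared stretches was not tested. The mean log2 ratio was -1.25 ± 1.305 with VUF11207 and -0.87 ± 1.996 with vehicle (SD, n = 3 each), a difference of -0.37, exact permutation p = 0.7 (two-sided). It was -1.16 without vehicle replicate 2 and turned to 0.75 without the unnumbered vehicle library.

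The ratio of Odc1 to Oaz1, the enzyme to its inhibitor, varied less. It was 0.134, 0.229 and 0.194 with vehicle and 0.239, 0.211 and 0.231 with VUF11207, and the groups overlapped because vehicle replicate 2 exceeded VUF11207 replicate 2. The difference in mean log2 ratio was 0.32 (exact permutation p = 0.2), and 0.11 without the unnumbered vehicle library. Odc1 to Sat1, synthesis to catabolism, was 0.136, 0.651 and 0.286 against 0.482, 0.275 and 0.439, with a difference of 0.40 that turned to -0.16 without the unnumbered vehicle library.

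Amd1 to Odc1, the ratio of the decarboxylases, was 1.70, 2.61 and 8.12 with vehicle and 4.71, 3.73 and 9.17 with VUF11207, a difference of 0.72 on the log2 scale that ran from 0.24 to 1.37 with 1 library left out. Vehicle replicate 3 and VUF11207 replicate 3 were the high libraries, 1 in each group. Azin1 to Oaz1, the 2 sides of the antizyme switch, stayed within 0.290 to 0.444, a difference of 0.09 that turned to -0.086 without the unnumbered vehicle library. Smox to Sms was lowest in the unnumbered vehicle library (0.106) and highest in vehicle replicate 2 (2.64), a difference of -0.35 that was -1.55 without the former and turned to 0.76 without the latter. The 6 ratios had exact permutation p-values from 0.2 to 0.9, and adjusted over the 6 all were 0.9. With 3 libraries against 3 this test cannot go below 0.1, so these p-values do not show equal ratios.

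**Figure D3:**
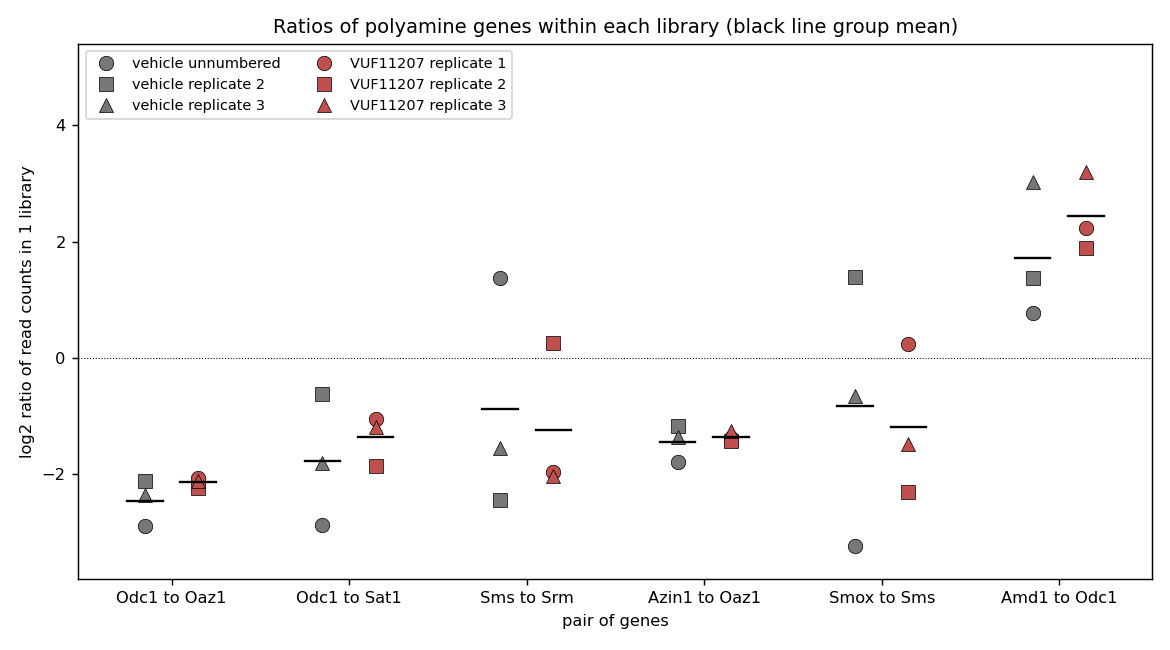
Log2 ratio of read counts for 6 pairs of polyamine genes in each library (points, grey vehicle, red VUF11207), with group means as black lines. For Sms to Srm the unnumbered vehicle library and VUF11207 replicate 2 lie above 0 and the other 4 libraries below it, while Azin1 to Oaz1 lies within a narrow band.

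Some tissue marker lists followed the division between libraries and others did not. The unnumbered vehicle library and VUF11207 replicate 2 were taken here as the libraries with the highest T cell level. The T cell count below was therefore partly fixed by that choice. Of 6 T cell markers 5 were higher in the unnumbered vehicle library and VUF11207 replicate 2 than in the other 4, as were 5 of 6 smooth muscle, 4 of 6 macrophage, 3 of 5 fibroblast, 2 of 7 prostate, 0 of 7 luminal epithelium, 0 of 4 basal epithelium, 0 of 5 red blood cell and 0 of 7 skeletal muscle markers. The summed level of the T cell markers was 15.6, 4.86 and 5.91 CPM with vehicle and 2.98, 18.2 and 5.21 CPM with VUF11207, with Cd5 at 0 in vehicle replicate 2. Smooth muscle markers summed to 15415, 4806 and 4364 CPM against 8523, 19414 and 4146 CPM, and no marker was at 0. Macrophage markers summed to 108 to 328 CPM against 91.4 to 209 CPM, and fibroblast markers to 205 to 409 CPM against 336 to 503.98 CPM. Luminal epithelium markers, from the cells that line the gland and make its secretion, had a narrow range beside that of Sms. They summed to 1792, 2310 and 2300 CPM with vehicle and 2053, 1908 and 2664 CPM with VUF11207. Basal epithelium markers summed to 37.2, 65.8 and 71.2 CPM against 81.5, 36.0 and 82.2 CPM. By TMM both lists were lowest in the unnumbered vehicle library and VUF11207 replicate 2. The marker counts above cover only markers that were higher there. As a share of all counts both lists were lowest in vehicle replicate 2. Red blood cell markers were highest in the unnumbered vehicle library (1844 CPM summed), but vehicle replicate 3 (721 CPM) was above VUF11207 replicate 2 (499 CPM). Skeletal muscle markers stood apart in vehicle replicate 3 (4317 CPM) and VUF11207 replicate 1 (4736 CPM), against 407 to 1178 CPM elsewhere, with Myh2 at 0 in the unnumbered vehicle library. Seminal vesicle markers summed lowest in the unnumbered vehicle library (5222 CPM) and VUF11207 replicate 2 (24980 CPM). The other 4 were at 30893 to 1488500 CPM, but single markers did not all follow that order.

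The prostate markers that followed the division were Pbsn and Tgm4. By TMM the prostate list summed to 40029.9 to 77687 CPM in the vehicle group and 82720.2 to 190601 CPM in the VUF11207 group. As a share of all counts the groups overlapped, at 2.94% to 9.55% with vehicle and 8.35% to 21.7% with VUF11207. Sbp alone was the largest part of each sum except in the unnumbered vehicle library, where Pbsn (17695 CPM) and Tgm4 were larger. Tgm4, the prostate transglutaminase that can join polyamines to secreted proteins, was at 16902, 828 and 955 CPM with vehicle and 624, 8518 and 1646 CPM with VUF11207. Sbp, which encodes the spermine-binding protein of the secretion, was lowest in the unnumbered vehicle library at 3710 CPM, but VUF11207 replicate 2 at 64893 CPM was within the range of the others (50372 to 143193 CPM). The part of these tissue differences in the levels of the polyamine genes was not tested, and in bulk tissue fewer cells of a type cannot be told apart from less RNA per cell. The same division was common among all genes by TMM, since 20.1% of those tested were higher and 17.7% lower in that pair of libraries than in the other 4. The shares were 32.7% and 1.93% by library totals alone.

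**Figure D4:**
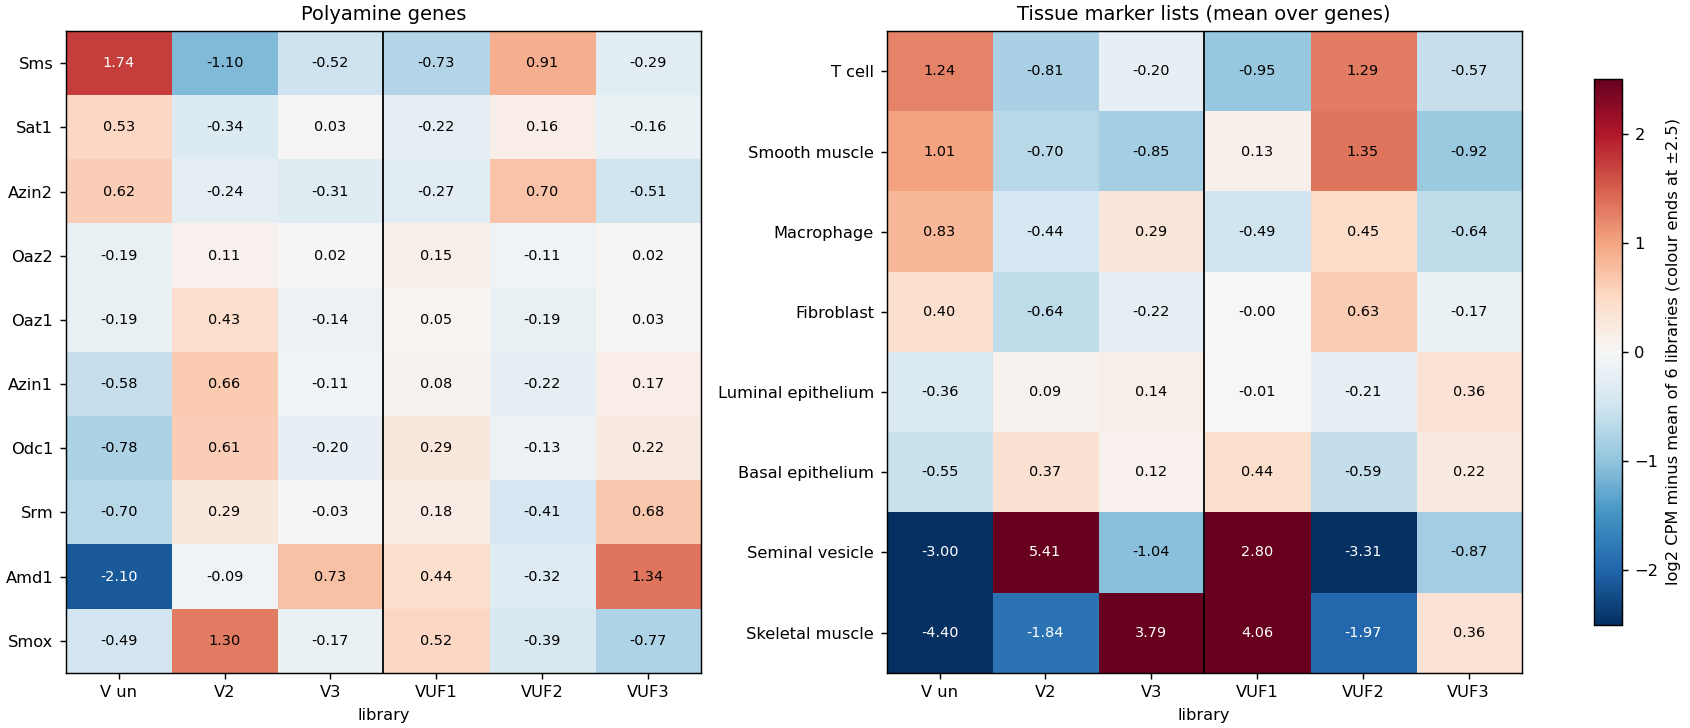
Log2 CPM relative to the average over the 6 libraries for the 10 polyamine genes (left) and, averaged over genes, for 8 tissue marker lists (right), with vehicle left of the black line and V un the unnumbered library. Sms (1.74 and 0.91), the T cell list (1.24 and 1.29) and the smooth muscle list (1.01 and 1.35) are high in the unnumbered vehicle library and VUF11207 replicate 2, where Amd1 is low (-2.10 and -0.32) by this TMM scaling.

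The genes most like Odc1, Sat1 and Azin2 across the 6 libraries were sought among 8652 genes by Pearson's r of TMM-scaled log2 CPM. They were not sought by library totals alone, by which vehicle replicate 2 was the lowest and not the highest library for Odc1. The most alike were Dnpep (r = 0.996), Spink11 (0.987) and Hspbp1 (0.986) for Odc1, and Emsy (0.996), Akap8l (0.996) and Dyrk2 (0.995) for Sat1. For Azin2 they were Mbnl1 (0.996), Sh3bgrl (0.993) and Cyba (0.992), the last a subunit of the phagocyte NADPH oxidase. Of the 8652 genes, 99 had an r above 0.95 with Odc1, 133 with Sat1 and 71 with Azin2. Mbnl1, an RNA splicing factor, reached 232 CPM in the unnumbered library and 271 CPM in VUF11207 replicate 2, against 80.8 to 102 CPM in the other 4.

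The wider pathway was followed through 40 further genes, of which 33 passed the filter on low counts. None passed the test in either direction in edgeR, DESeq2 or limma voom, beside 0%, 0.0231% and 0% of all genes. In edgeR 1 of the 33 had an unadjusted p under 0.05, beside 1.43% of all genes. Of the 33, 17 had a log2 fold change above 0 (44.7% of all genes) and 16 below. Their median was 0.03 beside -0.04 for all genes. The groups were apart by TMM for 2 of 33 (6.06%), both higher with VUF11207, beside 3.05% of all genes in that direction. They were Arg2 and the transporter gene Atp13a4, which was at most at 0.710 CPM. By library totals alone 2 of 33 were apart, Asl and Atp13a4, both higher with VUF11207, beside 1.88% of all genes in that direction. Asl, of the arginine and ornithine supply, was then at 58.6, 28.8 and 68.0 CPM against 78.2, 82.0 and 128.9 CPM. By TMM its groups overlapped.

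In the supply of arginine and ornithine, 3 of 6 genes were above 0 and 3 below. Arg2, the mitochondrial arginase that yields ornithine for Odc1, was at 31.2, 23.0 and 39.9 CPM with vehicle and 46.8, 52.0 and 81.2 CPM with VUF11207. Its log2 fold change was 0.93 ± 0.30 (SE), with an edgeR p of 0.0185 and an adjusted p of 0.9999, and reached 1.15 when vehicle replicate 3 was left out. Leaving out VUF11207 replicate 3 gave 0.66 and leaving out vehicle replicate 2 gave 0.76, both with an unadjusted edgeR p over 0.05. By library totals alone the Arg2 groups overlapped and that p was also over 0.05. Oat, ornithine aminotransferase, the most abundant of this group, was at 149.8 to 191 CPM with vehicle and 149 to 175 CPM with VUF11207.

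Among methionine cycle and salvage genes 6 of 8 were above 0, beside 44.7% of all genes. Mat2a, which makes the S-adenosylmethionine that Amd1 decarboxylates, was at 86.7, 468 and 885 CPM with vehicle and 782, 519 and 1091 CPM with VUF11207. Its libraries fell in nearly the order of those of Amd1, lowest in the unnumbered vehicle library and highest in VUF11207 replicate 3, and its log2 fold change was 0.73 ± 0.77 (SE). Enoph1, of the salvage pathway, was at 0.28 ± 0.28 (SE).

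In the hypusine pathway, which builds part of spermidine into the translation factor eIF5A, 3 of 4 genes were above 0 (44.7% of all genes). Eif5a was at 307, 665 and 446 CPM with vehicle and 494, 398 and 559 CPM with VUF11207, and its log2 fold change was 0.03 ± 0.36 (SE). Dohh, the hydroxylase of the last step, was at -0.24 ± 0.25 (SE). Of 10 transport genes 8 were below 0, beside 7611 of the 13753 genes tested. Their median was -0.48 by TMM, beside -0.04 for all genes. The smallest p among them was that of Atp13a3, a polyamine transporter of the P5B ATPase family, at -0.45 ± 0.24 (SE) and an edgeR p of 0.104. Vehicle replicate 2 was its highest library by TMM (95.1 CPM) and its lowest by library totals alone (40.5 CPM). Slc3a2, the heavy chain of amino acid exchangers, was at 97.4, 317 and 109.6 CPM against 132, 94.6 and 100.1 CPM, so that by TMM vehicle replicate 2 stood apart, and its log2 fold change was -0.68 ± 0.48 (SE). Scaled by library totals alone, Slc3a2 was at 129.7, 134.8 and 134.7 CPM against 133.5, 117.9 and 113.9 CPM, and vehicle replicate 2 did not stand apart. Sat2, an acetyltransferase related to Sat1, was at 0.37 ± 0.32, and Sbp at 1.18 ± 1.34 (SE).

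**Figure D5:**
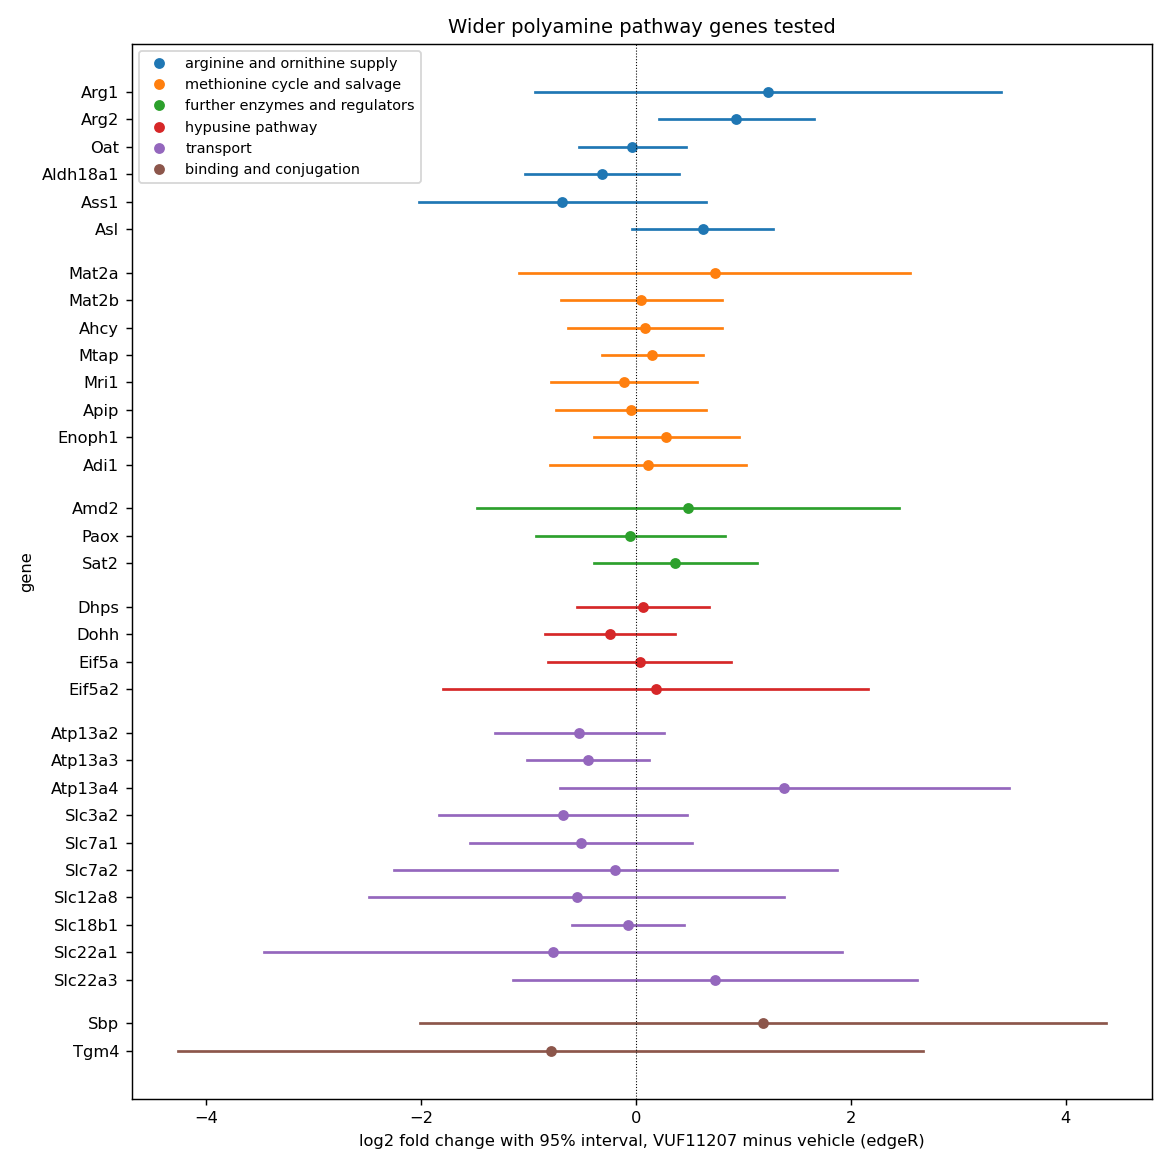
Log2 fold change with its 95% interval, VUF11207 minus vehicle (edgeR), for the 33 wider pathway genes that passed the filter on low counts, coloured by subgroup. The interval of Arg2 (0.21 to 1.66) lies above 0 and the other 32 include 0, and none passed after adjustment over all genes.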

How the data were processed

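RNA sequencing of 6 prostate libraries was analysed, 3 per group by the sample labels. The authors deposited a table of raw read counts, as whole numbers, for each gene symbol. The submitters' processing notes name fastp, HISAT2 and HTSeq and the mm10 build. How shared reads were counted, the strand setting, the annotation and the versions are not stated there. The counts of the 5 libraries with a file of their own were identical to the table's. The remaining vehicle column entered its group without a replicate number.

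Counts were filtered with filterByExpr (13753 of 18697 genes kept), scaled by TMM and tested with edgeR 4.0.16 (quasi-likelihood, robust, two-sided, Benjamini-Hochberg over all genes). The SE is the fold change divided by the square root of F. Log2 CPM used a prior count of 2, and 2 was added to each count for the log2 ratios, their differences and tests, but not for the linear ratios. Exon lengths and positions are from GENCODE M21. Alternatives were DESeq2 1.42.0, limma 3.58.1 voom, other scalings and filters, a replicate block and leaving out libraries. R 4.3.3 and Python 3.11.15 were used.

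The members, the lists and the alternatives were chosen with earlier results of these data known. All 10 members are described. In the wider list the rule names, in each subgroup, the gene with the smallest p and that with the highest mean CPM, and for Odc1, Sat1 and Azin2 the 3 most alike genes among those whose average log2 CPM reached 3. Amd2, Asl, Atp13a4 and Tgm4 were named after their values were seen. A further prostate marker is not reported here, and the prostate list was computed without it.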

Additional observations from a re-analysis of the deposited data

How the results depend on the processing

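No member and no wider pathway gene passed the threshold under any of the 18 alternatives, 1 of which (leaving out the 2 libraries with the highest T cell level) was chosen after seeing the data. Over all genes DESeq2 called 4 and edgeR by library totals alone 3, all higher with VUF11207, and the other alternatives called 0. The sign of Amd1 and Srm was kept in all 18. With 1 library left out, the log2 fold changes ran from -0.12 to 0.61 for Odc1, -1.08 to 0.92 for Sms, -0.35 to 0.083 for Sat1, -0.99 to 0.22 for Smox, -0.20 to 0.15 for Oaz1, -0.039 to 0.12 for Oaz2, -0.30 to 0.35 for Azin1 and -0.49 to 0.36 for Azin2. Without the 2 libraries with most seminal vesicle counts, Oaz1 turned to 0.11, Azin1 to 0.33 and Azin2 to 0.019, and without the 2 with the highest skeletal muscle level Azin2 turned to 0.0082. Without the 2 with the highest T cell level Sms turned to 0.29. By library totals alone Oaz1 turned to 0.21, Azin1 to 0.34 and Azin2 to 0.11. With limma voom Azin1 was at 0.0040, and with sample weights Sms was at 0.26 and Azin2 at 0.039. Azin2 was at 0.022 without the 50 most abundant genes and at 0.0013 without the low count filter. The cause of these turns was not tested, beyond the libraries left out. The labels do not say that the replicate number pairs samples. With replicate block, over replicates 2 and 3 of each group, Odc1 turned to -0.14, Sms to 1.13, Sat1 to 0.17, Oaz2 to -0.096 and Azin2 to 0.39, Smox moved from -0.55 to -1.14, and 0 genes of either list passed. Unadjusted p-values under 0.05 in that fit were those of Smox and 4 wider pathway genes, and of 834 genes in all against 196 without the block. Same-numbered libraries had deviations from their group means that correlated at -0.33 for replicate 2 and 0.053 for replicate 3. The biological coefficient of variation of 51.4% limits what 3 libraries a group can show. Which libraries were low depended on the scaling: Amd1, Srm, Oaz1, Oaz2 and Azin1 were lower in the unnumbered vehicle library and VUF11207 replicate 2 than in the other 4 by TMM and RLE, and 0 of the 10 by library totals alone, while Sms, Sat1 and Azin2 were higher there under all 3.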
